A study of Mus musculus with 18 samples.

Results

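Kidneys that had been injured with aristolochic acid I (AAI) and then left to remodel were compared with kidneys given the DMSO vehicle, both carrying the genotype label Klf6PTKO. The comparison takes 6 of the 18 RNA-seq libraries of the series, 3 in each group. The sample titles define its groups, and it was chosen with earlier results of these data known. All 24062 gene symbols of the deposited table were read in, and the 14604 with at least 1 CPM (reads per gene scaled to the size of the library) in at least 3 libraries were tested. The group called PTKO AA 6wk in the titles received AAI for 3 weeks and then had 3 weeks for remodeling. Its counterpart, PTKO DMSO, received the vehicle, and the week of its collection is not given. A group called PTKO AA 3wk, taken at the end of AAI, and both Klf6fl/fl groups of the same design (fl/fl AA 6wk and fl/fl DMSO) are used only where stated. All mice are C57Bl/6, and the tissue is kidney cortex from mice perfused with PBS. The series title places the loss of Klf6 in the proximal tubule. The driver of the deletion, the age and sex of the mice and the number of animals behind a library are not given in the labels used here, so p-values measure the spread between libraries.

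AAI is a plant nephrotoxin that is taken up by organic anion transporters of the proximal tubule, forms DNA adducts there and leaves a scarred cortex. Proximal tubule cells that survive such injury lose transporters and mitochondrial fuel use, switch on injury and cell cycle arrest genes, and either redifferentiate or stay in an inflammatory state often called failed repair. The remodeling phase therefore bears on which parts of the injury response are still present after the toxin has been withdrawn. Klf6 encodes a zinc finger transcription factor that is induced early after injury.

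Klf6 (chr13:5861482-5870394, mm10, GENCODE M21) had 228, 254 and 369.8 CPM in replicates 1, 2 and 3 of the 6-week group, against 40.2, 43.2 and 56.7 CPM in the DMSO group. The groups did not overlap, and the log2 fold change was 2.56 ± 0.18 (SE; limma, adjusted p = 1.94e-08; exact permutation p = 0.1, the smallest that 3 libraries against 3 allow). These are counts over the whole gene in whole cortex, so they do not check the genotype label. The 6 libraries held 18561515 to 20787996 reads, and a value of 0 allows a level of up to 0.144 to 0.162 CPM (3 reads, counting error only).

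Replicate 3 of the 6-week group stood apart from the others. In it, 655 genes lay more than 1 log2 unit from the mean of the other two 6-week libraries, 169 of them higher and 486 lower. The same count was 90 for replicate 1 and 229 for replicate 2. Its log2 values correlated with those of its group at 0.9775 and 0.9703, whereas replicates 1 and 2 correlated at 0.9914. Replicate 3 of the DMSO group differed from its own group at 189 genes, against 80 and 102 for DMSO replicates 1 and 2. Values without 6-week replicate 3 are therefore given beside the results below where they change a call or move a value most.

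Of the 14604 genes tested, 9501 (65.1%) passed an adjusted p of 0.05 between the 6-week and DMSO libraries, 7842 higher (53.7%) and 1659 lower (11.4%). Without 6-week replicate 3 the count was 8572 (58.7%), 7057 higher (48.3%) and 1515 lower (10.4%), with 8282 genes called in both fits and 0 of the calls turned in sign. At 2-fold or more 2968 genes (20.3%) passed, 2560 higher (17.5%) and 408 lower (2.79%). The split between higher and lower depends on scaling. Under CPM the median log2 fold change of all tested genes was 0.36, and under median-of-ratios scaling it was 0.011. That scaling gave 8406 calls (57.6%), 4191 higher (28.7%) and 4215 lower (28.9%), and 5850 genes (40.1%) were called alike under both. The 10 most abundant genes took 8.81 to 9.58% of reads at 6 weeks and 11.1 to 11.4% under DMSO. List medians below should be read against the 0.36 of all genes. Fold changes are on the log2(CPM + 1) scale, which understates those of genes with low values.

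Among the genes furthest above the vehicle by the rule for named genes were the injury markers Havcr1, Lcn2, Krt19 and Krt20, the macrophage genes Gpnmb and Lyz2, and C3, Serpina10 and Ugt1a2. That rule takes only genes called without 6-week replicate 3 and with no overlap of the groups. Neither trait is therefore a separate result for them. C3, the central complement component (chr17:57203970-57228136), had 1414, 2182 and 2064 CPM at 6 weeks, against 12.1, 17.8 and 19.2 CPM under DMSO (log2 fold change 6.76 ± 0.25, adjusted p = 6.87e-11). Havcr1, which encodes kidney injury molecule 1 (chr11:46735080-46779578), had 269, 351 and 116 CPM at 6 weeks and 1.45, 1.35 and 0.754 CPM under DMSO (6.69 ± 0.33, adjusted p = 1.29e-09). Lcn2, a lipocalin released by injured tubules, had 182, 262 and 348 CPM at 6 weeks and 2.45, 3.22 and 0.916 CPM under DMSO (6.40 ± 0.33, adjusted p = 1.69e-09). In each of these the lowest 6-week library lay far above the highest DMSO library, but replicate 3 was the lowest for Havcr1 and the highest for Lcn2. The macrophage glycoprotein gene Gpnmb had 168, 216 and 95.1 CPM at 6 weeks against 1.3, 1.2 and 0.808 CPM under DMSO (6.19 ± 0.69), and the lysozyme gene Lyz2 had 746, 1028 and 352 CPM against 8.89, 10.2 and 13.3 CPM (5.79 ± 0.36). Both were lowest in replicate 3 among the 6-week libraries. Serpina10, an inhibitor of clotting proteases, had 84.2, 106 and 52.5 CPM at 6 weeks, against 0.499, 0.433 and 0.108 CPM under DMSO (5.88 ± 0.24). The keratin genes Krt20 (5.05 ± 0.29) and Krt19 (4.85 ± 0.38) were also among the leading genes, with no overlap between groups. Ugt1a2, a glucuronosyltransferase gene, had 23.2, 29.6 and 247 CPM at 6 weeks, against 0.849, 1.2 and 1.02 CPM under DMSO. Its replicate 3 value stands alone, and the fold change was 4.81 ± 0.69 with that library and 3.75 without it.

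The genes furthest below the vehicle by the rule for named genes were Slco1a1, Ugt2b38, Pzp, Dpys, Cyp2a5, Cyp4a12a, Cyp4b1, Azgp1, Slc22a6 and Ces1g, among them transporters and metabolic enzymes. Slco1a1, an organic anion transporter of the straight segment (chr6:141907282-141946962), had 26.2, 14.1 and 0.409 CPM at 6 weeks, against 659, 639.9 and 722 CPM under DMSO (-6.33 ± 0.89, adjusted p = 1.99e-05; -5.05 without replicate 3). Dpys, the dihydropyrimidinase of pyrimidine breakdown (chr15:39768487-39857470), had 0.364, 0.368 and 0.102 CPM at 6 weeks and 21.6, 26 and 25.3 CPM under DMSO (-4.31 ± 0.16, adjusted p = 6.87e-11). Slc22a6, which encodes the organic anion transporter OAT1, had 197, 244 and 74 CPM at 6 weeks and 1891, 1679.9 and 2118 CPM under DMSO (-3.62 ± 0.56, adjusted p = 4.65e-05). No 6-week library reached a DMSO library in any of the 3 genes. Cyp4b1, an abundant cytochrome P450 gene, had 431, 350.4 and 181 CPM at 6 weeks, against 4771, 4313 and 3928 CPM under DMSO (-3.84 ± 0.37). Pzp, a broad protease inhibitor gene, had 29.4, 17.3 and 0.358 CPM at 6 weeks and 310.3, 319 and 288 CPM under DMSO (-5.07 ± 0.83; -3.70 without replicate 3). The fall of Slco1a1 and Pzp was therefore partly carried by replicate 3. All genes of this list had to be called without that library and to show no overlap of the groups, so neither is a separate result. Cyp2a5 (-4.03 ± 0.42), Cyp4a12a (-3.88 ± 0.54), Azgp1 (-3.64 ± 0.32) and Ces1g (-3.27 ± 0.43) complete the list, with the groups apart in each. Ugt2b38, a glucuronosyltransferase gene, had 0.208, 0.0526 and 0.0511 CPM at 6 weeks but 452, 431 and 0.269 CPM under DMSO. Its fold change was -5.84 ± 1.45 with all libraries and -8.65 without DMSO replicate 3, the 1 vehicle library in which the gene was at the 6-week level. Members of the Ugt1a, Ugt2b, Cyp2a, Cyp4a, Slco1a and Slc22a families have close paralogs, or exons in common, among which reads can be shared out wrongly, so the values of single members are uncertain.

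**Figure D1:**
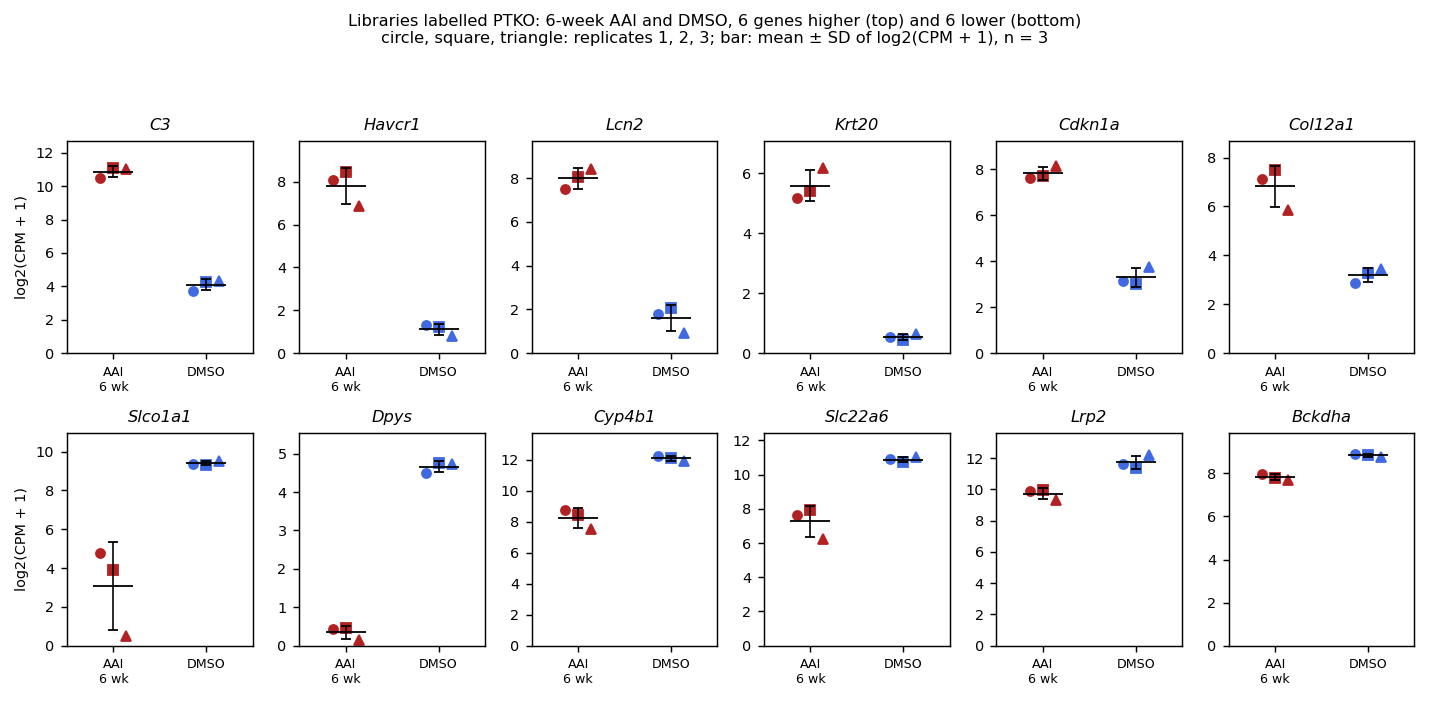
Log2(CPM + 1) of 6 genes higher (top row) and 6 lower (bottom row) in the 6-week AAI libraries (red, left) than in the DMSO libraries (blue, right), all labelled PTKO. Points are libraries, with replicate 3 as a triangle, and bars give the mean ± SD of 3; the groups do not overlap in any panel, and the triangle lies lowest at 6 weeks for Havcr1, Col12a1, Slco1a1, Dpys, Cyp4b1, Slc22a6, Lrp2 and Bckdha.

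Tubular injury markers stayed above the vehicle throughout. All 20 listed markers were tested and all 20 were higher, also with median-of-ratios scaling and without replicate 3, with a median log2 fold change of 3.33 against 0.36 for all genes. The median over the markers was 3.30, 3.42 and 3.15 in 6-week replicates 1, 2 and 3, relative to the DMSO mean, and -0.06, 0.16 and -0.05 in the DMSO libraries. Replicate 3 was thus close to its group for this list. Spp1, which encodes osteopontin, was the most abundant, at 10643, 10078 and 8752 CPM at 6 weeks against 621, 627 and 668 CPM under DMSO (3.94 ± 0.23). Cd44, a hyaluronan receptor gene, had 83.9, 99.8 and 62.1 CPM at 6 weeks and 2.6, 2.5 and 3.29 CPM under DMSO (4.43 ± 0.23). Clu, the gene of the chaperone clusterin, had 2144, 2510.1 and 1931 CPM at 6 weeks and 299, 251 and 231 CPM under DMSO (3.07 ± 0.17). Sox9, a regulator of tubule regeneration (3.97 ± 0.23), and Vim, the intermediate filament of dedifferentiated cells (2.87 ± 0.25), were called too.

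Genes described in tubule cells that fail to repair were likewise higher. Of 20 listed genes 18 passed the filter and all 18 were called higher, also under the other scaling and without replicate 3 (median 2.28). Vcam1, an adhesion molecule gene and a common marker of that state, had 261, 223 and 138 CPM at 6 weeks, against 7.94, 9.48 and 11.7 CPM under DMSO (4.25 ± 0.27, adjusted p = 1.08e-08). Dcdc2a, a microtubule-binding gene, had 89.3, 93 and 91.2 CPM at 6 weeks and 14.1, 14.2 and 10.9 CPM under DMSO (2.72 ± 0.15), values that hardly vary within a group. Akap12, a kinase anchoring gene, had 191, 277 and 345 CPM at 6 weeks and 23, 21.4 and 25.9 CPM under DMSO (3.44 ± 0.20). The NF-kB subunit genes Relb (2.44 ± 0.18) and Nfkb2 (1.90 ± 0.17) and the chemokine gene Ccl2 (4.48 ± 0.38) belong to the same list. Cxcl1, a neutrophil-attracting chemokine gene, had 18.6, 10.7 and 21.8 CPM at 6 weeks, against 0.799, 0.433 and 0.431 CPM under DMSO (3.49 ± 0.26).

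Sequences around gene starts (250 bases before to 50 after the RefSeq start, build GRCm38.p6) are shown for 2 of these higher genes and 2 transporter genes that were lower. They were picked as called genes whose window holds a textbook motif of AP-1, NF-kB or HNF1, in capitals. AP-1 was searched as TGANTCA and NF-kB by its kappa B consensus without mismatch, and HNF1 by its inverted repeat consensus with up to 2 mismatches, on both strands; no matches to 2 motifs overlapped in the windows shown. The first is Havcr1, on the plus strand at chr11:46750918-46751217, with an AP-1 match that begins 11 bases after the start of transcription, in transcribed sequence and not upstream. This RefSeq start lies inside the gene span given above, not at its upstream end. Its match is counted in the share of injury markers below. The second is Cxcl1, on the plus strand at chr5:90890995-90891294, with an NF-kB match. Slc17a1, a phosphate and urate transporter gene with 432, 430.3 and 244 CPM at 6 weeks and 875, 855 and 906 CPM under DMSO (-1.30 ± 0.32), lies on the plus strand at chr13:23870023-23870322 and holds an HNF1 match. Abcc2, an organic anion exporter gene with 239, 228 and 271 CPM at 6 weeks and 481, 444 and 489 CPM under DMSO (-0.94 ± 0.18), lies on the plus strand at chr19:43782058-43782357 and holds an HNF1 match.
Havcr1: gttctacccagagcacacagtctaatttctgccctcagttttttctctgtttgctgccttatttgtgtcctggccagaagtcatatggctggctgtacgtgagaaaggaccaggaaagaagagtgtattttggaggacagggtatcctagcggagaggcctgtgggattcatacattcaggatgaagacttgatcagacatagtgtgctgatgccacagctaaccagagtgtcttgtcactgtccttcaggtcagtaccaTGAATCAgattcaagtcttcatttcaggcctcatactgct
Cxcl1: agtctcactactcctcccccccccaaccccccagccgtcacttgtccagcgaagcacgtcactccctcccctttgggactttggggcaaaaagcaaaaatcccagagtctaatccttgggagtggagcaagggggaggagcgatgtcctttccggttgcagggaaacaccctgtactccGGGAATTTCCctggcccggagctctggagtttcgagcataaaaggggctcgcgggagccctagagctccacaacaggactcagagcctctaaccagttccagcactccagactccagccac
Slc17a1: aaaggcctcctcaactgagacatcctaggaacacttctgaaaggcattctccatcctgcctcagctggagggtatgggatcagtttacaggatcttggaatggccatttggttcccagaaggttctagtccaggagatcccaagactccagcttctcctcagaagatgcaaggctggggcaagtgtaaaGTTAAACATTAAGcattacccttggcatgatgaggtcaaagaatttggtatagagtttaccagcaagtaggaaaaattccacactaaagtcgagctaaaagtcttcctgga
Abcc2: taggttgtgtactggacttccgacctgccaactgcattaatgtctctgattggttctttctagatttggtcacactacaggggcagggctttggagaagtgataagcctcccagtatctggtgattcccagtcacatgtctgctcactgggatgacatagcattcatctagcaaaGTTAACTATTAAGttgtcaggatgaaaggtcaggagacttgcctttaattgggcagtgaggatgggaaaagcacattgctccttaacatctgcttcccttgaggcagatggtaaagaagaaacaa
AP-1 matches occurred in 4 of the 16 injury markers with a window in the RefSeq table (25%) and in 3 of 12 failed-repair genes (25%), against 8.97% of all 27025 genes with a window. The NF-kB letters were found in 3 of the same 12 failed-repair genes (25%) and in 4 of 26 chemokine and cytokine genes (15.4%), against 0.466% of all genes. Cxcl1 and Cxcl2 are counted in both lists, so these shares are not separate. The failed-repair list was also chosen with NF-kB subunit and chemokine genes among its members, so its NF-kB share depends on that choice. HNF1 matches were found in 3 of 21 organic anion and cation transporters (14.3%), in 2 of 34 S1, S2 and S3 markers (5.88%) and also in 2 of 26 chemokine and cytokine genes (7.69%), against 1.58% of all genes. AP-1 matches were found in 7 of those 26 chemokine and cytokine genes (26.9%) and in 1 of 12 complement genes (8.33%). All other pairs of these lists and motifs had 0 matches, except 1 AP-1 match in the 34 S1, S2 and S3 markers (2.94%). A match describes the letters in these windows and does not show that a factor binds there.

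Targets of p53 and AP-1 genes were still raised at 6 weeks, while senescence genes and NRF2 targets were divided. Of 29 tested p53 target genes 24 were higher and 1 lower, with medians of 1.06, 1.16 and 1.08 in the 6-week libraries and -0.02, -0.09 and 0.06 in the DMSO libraries, so replicate 3 was close to its group. Cdkn1a, which encodes the cell cycle inhibitor p21, had 196, 207 and 283 CPM at 6 weeks, against 7.79, 7.02 and 12.5 CPM under DMSO (4.53 ± 0.22, adjusted p = 1.09e-09). Eda2r, a death-domain receptor gene, had 18.3, 21.5 and 20 CPM at 6 weeks and 0.35, 0.866 and 1.08 CPM under DMSO (3.59 ± 0.20). Phlda3 (3.29 ± 0.18), an Akt inhibitor gene, and Pmaip1 (2.40 ± 0.19), which encodes the apoptosis gene product Noxa, were also higher, and Sesn2, a stress-induced regulator of metabolism, was lower (-0.72 ± 0.18). The cell cycle inhibitor gene Cdkn2b had 9.92, 11 and 16.1 CPM at 6 weeks, against 0.549, 0.962 and 0.431 CPM under DMSO (3.00 ± 0.21). Of 17 tested senescence genes 13 were higher (12 without replicate 3, 9 with median-of-ratios scaling) and 4 lower. Of all genes 53.7% were higher and 11.4% lower. AP-1 and early growth response genes were higher at 17 of 18, under both scalings and without replicate 3. Among them Atf3 had 15.6, 19.3 and 27.1 CPM at 6 weeks and 0.649, 1.11 and 0.808 CPM under DMSO (3.52 ± 0.28), and Fosl2 had 76.3, 109.9 and 107 CPM and 23.4, 20.8 and 15.2 CPM (2.25 ± 0.18). Dusp1, a phosphatase gene of the same list, was not called (0.30 ± 0.35, adjusted p = 0.471). NRF2 targets split. Of 22 tested, 14 were higher, a share not far above the 53.7% of all genes. Ephx1, an epoxide hydrolase gene, led them (236, 244 and 267 CPM at 6 weeks against 32.3, 40.6 and 27.3 CPM under DMSO, 2.88 ± 0.14). With median-of-ratios scaling 10 were higher and 3 lower, and the ferritin gene Fth1 (0.00097 ± 0.17) was among those not called under CPM.

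Cell cycle genes were higher in most members but to a smaller extent, and unevenly between libraries. Of 30 tested, 27 were higher (20 with median-of-ratios scaling, 28 without replicate 3), with a median of 1.05. The list medians were 1.41, 1.47 and 0.41 in 6-week replicates 1, 2 and 3, and 0.02, -0.12 and 0.14 in the DMSO libraries. Mki67, a proliferation marker gene, had 23, 29.5 and 6.24 CPM at 6 weeks, against 4.1, 3.42 and 6.79 CPM under DMSO, so that replicate 3 lay within the DMSO range (1.64 ± 0.44; 2.27 without it). Pcna, the sliding clamp of DNA synthesis, had 28, 29.6 and 31.5 CPM at 6 weeks and 15.8, 13.9 and 15.1 CPM under DMSO (0.95 ± 0.15), and the helicase gene Mcm2 had 32, 30.1 and 27.7 CPM and 16.4, 14.7 and 15.1 CPM (0.92 ± 0.11). For these 2 genes replicate 3 was within or near the range of the others. In bulk cortex, more or fewer cells of a type and more or less RNA per cell cannot be told apart, here and in every cell type list below.

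**Figure D2:**
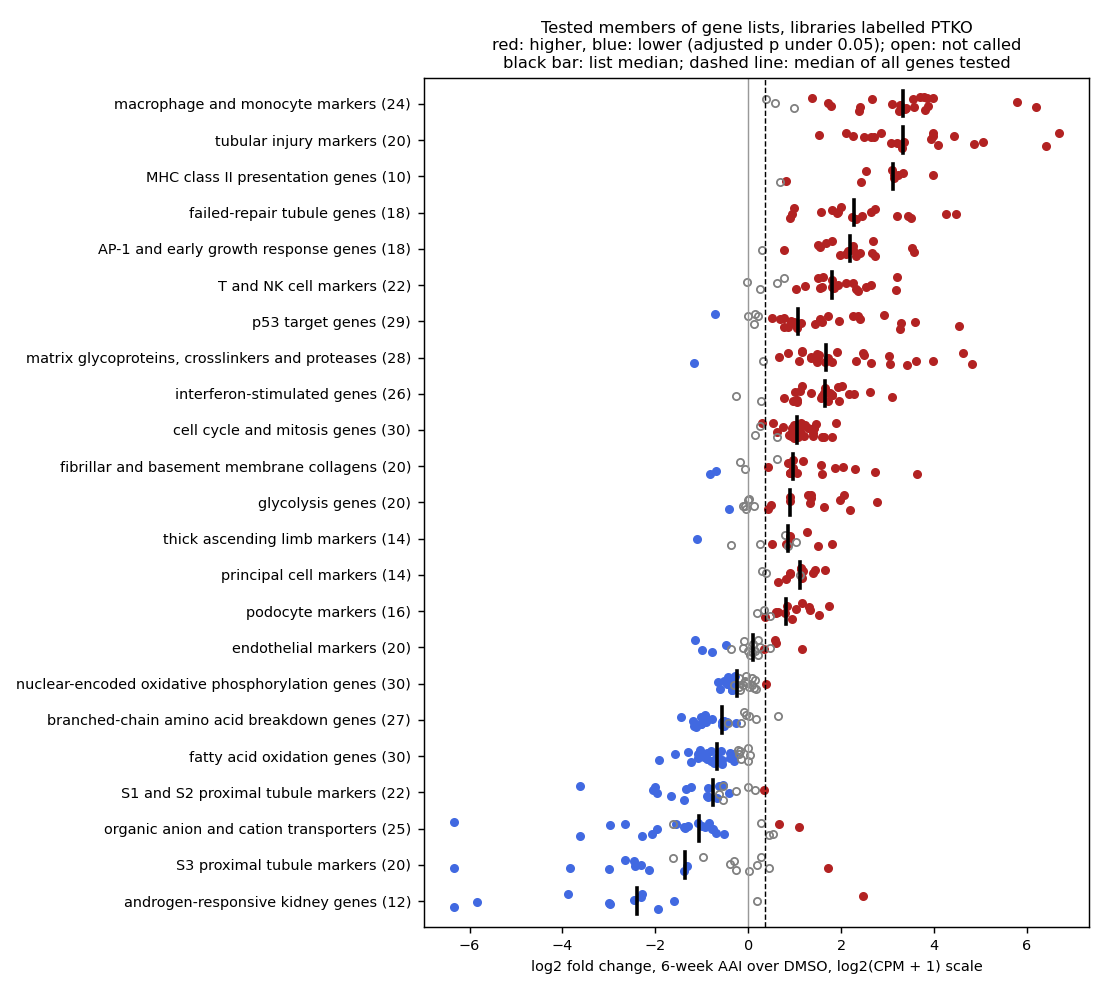
Log2 fold change of the tested members of 23 gene lists, 6-week AAI over DMSO, in the libraries labelled PTKO, with the number tested in parentheses. Red and blue points passed an adjusted p of 0.05 as higher and lower, open points did not, black bars are list medians and the dashed line marks the median of all genes at 0.36; the lists run from macrophage and injury markers (medians 3.32 and 3.33) to androgen-responsive genes (median -2.39).

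Markers of macrophages, T cells and antigen presentation were higher in most members, those of B cells and neutrophils were not. Of 24 tested macrophage and monocyte markers 21 were higher (median 3.32) and 22 without replicate 3, and their summed level was 2875, 3416 and 1566 CPM in the 6-week libraries, against 192, 182 and 179.6 CPM in the DMSO libraries (exact permutation p = 0.1). Replicate 3 held the least of the 3. The C1q gene C1qa had 295, 328 and 155 CPM at 6 weeks, against 15.4, 14.8 and 19.2 CPM under DMSO (3.84 ± 0.31). Mrc1, the mannose receptor of resident-type macrophages, had 66.7, 63.5 and 40.1 CPM at 6 weeks and 4.05, 3.66 and 3.66 CPM under DMSO (3.56 ± 0.19). Arg1 and Ly6c2, linked to wound-type and freshly recruited monocytes, stayed low and were not called (0.98 ± 0.55 and 0.57 ± 0.33), although Ly6c2 was called without replicate 3 (1.0, adjusted p = 0.00713). T and NK cell markers were higher at 18 of 22 tested. The summed levels of all 25 listed were 119, 175 and 52.3 CPM at 6 weeks and 11, 11.3 and 10.8 CPM under DMSO. Foxp3, which defines regulatory T cells, had 13.6, 20.3 and 3.07 CPM at 6 weeks and 0.2, 0.192 and 0.162 CPM under DMSO (3.19 ± 0.43). The cytotoxic genes Gzmb (0.61 ± 0.49), Gzma (-0.02 ± 0.38) and Prf1 (0.24 ± 0.21) were among the 4 tested members not called. The list holds further cytotoxic and NK cell genes, such as Cd8a, Nkg7 and Klrk1, whose values are not given here. Regulatory and cytotoxic cells are therefore not compared. MHC class II genes were higher at 9 of 10, for example Cd74, the invariant chain, at 3259, 3682 and 1316 CPM at 6 weeks and 249.7, 228 and 264 CPM under DMSO (3.34 ± 0.40). B and plasma cell markers were higher at 6 of 13, with Sdc1 (2.45 ± 0.25) and Xbp1 (0.65 ± 0.15), which epithelium also expresses, among the 6. That share lies below the 53.7% of all genes called higher, and 4 of the 13 were higher with median-of-ratios scaling. Of 10 listed neutrophil markers 6 passed the filter and Csf3r alone was called (1.76 ± 0.40); the granule genes S100a8 and S100a9 were at 0.779, 0.789 and 1.64 and 0.935, 0.473 and 1.99 CPM in the 6-week libraries, against 1.9, 0.673 and 1.89 and 2.8, 1.01 and 2.91 CPM in the DMSO libraries.

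Chemokines, complement and interferon genes rose with them. Of 31 tested chemokine and cytokine genes 27 were higher and Ccl28, a chemokine of mucosal epithelium, was lower (-1.65 ± 0.62, a call lost without replicate 3 at adjusted p = 0.0662). Ccl9 had 73.9, 87.3 and 37.7 CPM at 6 weeks, against 0.799, 1.11 and 2.05 CPM under DMSO (4.81 ± 0.30). Lif, a cytokine of the interleukin 6 family, had 14.9, 21.7 and 17.8 CPM at 6 weeks and 0.25, 0.385 and 1.02 CPM under DMSO (3.64 ± 0.26). Cxcl13, which attracts B cells to lymphoid follicles, had 25.5, 17.6 and 9.1 CPM at 6 weeks and 0.3, 0.481 and 0.431 CPM under DMSO (3.61 ± 0.52). Complement genes were higher at 18 of 21, among them the inhibitor gene Cfi (190.2, 189.8 and 96.4 CPM at 6 weeks against 8.89, 9.86 and 6.09 CPM under DMSO, 4.06 ± 0.27) and the anaphylatoxin receptor gene C5ar1 (3.15 ± 0.24). Cfb, which encodes factor B of the alternative pathway, was lower (-0.73 ± 0.17). Interferon-stimulated genes were higher at 24 of 26, with medians of 1.75, 1.97 and 1.05 in the 6-week libraries and -0.13, -0.03 and 0.14 in the DMSO libraries, replicate 3 being the lowest of the 6-week ones. Ifit3 had 76.2, 70.7 and 59.3 CPM at 6 weeks and 6.39, 9.14 and 6.03 CPM under DMSO (3.10 ± 0.19).

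Matrix genes were higher, with replicate 3 well below the other 6-week libraries. Collagen genes were higher at 15 of 20, lower at 2 and had a median of 0.96. The list medians were 1.15, 1.29 and 0.46 in 6-week replicates 1, 2 and 3, and -0.31, -0.03 and 0.36 in the DMSO libraries, so replicate 3 was close to DMSO replicate 3. Col1a1, the main chain of fibrillar scar collagen, had 165, 207 and 35.8 CPM at 6 weeks, against 8.39, 15.7 and 26.9 CPM under DMSO (2.73 ± 0.50, adjusted p = 0.000227; 3.51 without replicate 3). Col3a1 had 259, 313 and 43.8 CPM at 6 weeks, against 15.5, 28.2 and 63.6 CPM under DMSO, where replicate 3 fell below DMSO replicate 3 (2.29 ± 0.58; 3.18 without it). Col18a1, a basement membrane collagen gene, was steadier, with 647, 602 and 543 CPM at 6 weeks and 195, 185 and 221 CPM under DMSO (1.57 ± 0.10, adjusted p = 7.02e-09). Col4a3 (-0.69 ± 0.16) and Col4a4 (-0.82 ± 0.16), chains of the mature glomerular and tubular basement membrane, were lower. Among 28 matrix glycoproteins, crosslinkers and proteases 26 were higher, and Timp3, a protease inhibitor gene, was lower (1817, 1736 and 1740.1 CPM at 6 weeks against 3733, 3344 and 4993 CPM under DMSO, -1.17 ± 0.17). The gelatinase gene Mmp2 had 108, 98 and 48.7 CPM at 6 weeks and 4.99, 7.31 and 7.7 CPM under DMSO (3.42 ± 0.24), and its activator Mmp14 had 90.6, 98.4 and 80 CPM and 6.79, 12 and 11.6 CPM (3.06 ± 0.22). Fibroblast, pericyte and myofibroblast markers were divided, with 10 of 19 higher, near the 53.7% of all genes called higher, and 2 lower. Without replicate 3, 12 were higher and 0 lower. Acta2, the smooth muscle actin of myofibroblasts, had 67.5, 85.9 and 38.8 CPM at 6 weeks, against 41.5, 52.6 and 40 CPM under DMSO. These ranges overlap and the gene was not called (0.45 ± 0.24, adjusted p = 0.118), but it was called without replicate 3 (0.77, adjusted p = 0.00629). Pdgfrb, a pericyte receptor gene, was not called (0.34 ± 0.33).

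Proximal tubule transcripts had not returned to the level of the vehicle. Of 22 markers of the convoluted segments (S1 and S2) 15 were lower and 1 higher, with 18 lower under median-of-ratios scaling and 11 lower without replicate 3 (median -0.77, or -0.70 without replicate 3). Their summed level was 20080.0, 19450.0 and 16860.0 CPM in the 6-week libraries and 40700.0, 36240.0 and 40320.0 CPM in the DMSO libraries (exact permutation p = 0.1). Lrp2, which encodes the endocytic receptor megalin, had 937, 992 and 629 CPM at 6 weeks, against 3089.9, 2669 and 4722 CPM under DMSO (-2.02 ± 0.29, adjusted p = 2.2e-05). Slc34a1, the main phosphate transporter gene, had 4044, 3775 and 2738 CPM at 6 weeks and 9536, 8572 and 8942 CPM under DMSO (-1.38 ± 0.24, adjusted p = 0.000159). Miox, an inositol oxidase gene, had 855, 753 and 538 CPM at 6 weeks and 2183, 2379 and 2119 CPM under DMSO (-1.66 ± 0.28). Not every S1 and S2 marker fell. Slc5a2, the glucose transporter gene SGLT2, had 415, 345 and 307 CPM at 6 weeks and 448, 429 and 396 CPM under DMSO, with overlap (-0.26 ± 0.16, adjusted p = 0.152). Pck1, a rate-limiting enzyme of glucose synthesis, was not called either (-0.53 ± 0.64).

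In the straight segment (S3) 10 of 20 markers were lower and Serpina1f was higher (1.72 ± 0.63), and here replicate 3 decided much of the size. The list medians were -0.65, -0.90 and -2.04 in 6-week replicates 1, 2 and 3, and 0.14, 0.16 and -0.25 in the DMSO libraries. The median fold change was -1.36 with replicate 3 and -0.77 without it, with 8 members then lower. Kap, the androgen-regulated kidney protein gene and the most abundant of the list, had 9359, 6917 and 683 CPM at 6 weeks, against 28448, 30795 and 26267 CPM under DMSO (-3.01 ± 0.85, adjusted p = 0.00566; -1.82, adjusted p = 0.0331 without replicate 3). Acsm3, a medium-chain acyl-CoA synthetase gene, had 694, 621 and 27.2 CPM at 6 weeks and 1279.8, 1250.3 and 929 CPM under DMSO. It was called at -2.31 ± 0.96 (adjusted p = 0.0439) and not without 6-week replicate 3 (-0.80, adjusted p = 0.316), nor without any 1 of the DMSO libraries, at -2.46 to -2.23. Slco1a6, by contrast, had 35.7, 42.6 and 34.2 CPM at 6 weeks and 249, 214 and 259.6 CPM under DMSO (-2.65 ± 0.33), with replicate 3 beside the others. Napsa, an aspartic protease gene, and Aqp1, the water channel gene, were not called (0.0055 ± 0.37 and -0.27 ± 0.37). Among androgen-responsive kidney genes, which overlap this list, 10 of 12 were lower and Prlr was higher (2.47 ± 0.62), with 7 lower without replicate 3. Their medians were -1.47, -1.65 and -4.82 in the 6-week libraries and 0.06, 0.12 and -0.22 in the DMSO libraries, the widest gap between replicates among the lists plotted by library.

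Drug and urate transporters followed the same direction. Of 25 organic anion and cation transporters 19 were lower and 2 higher, and 18 were lower without replicate 3. Slc22a8, which encodes the anion transporter OAT3, had 250.3, 257 and 203 CPM at 6 weeks, against 994, 822 and 969.7 CPM under DMSO (-1.97 ± 0.32). Slc22a12, the urate transporter gene, had 600.2, 781 and 219.5 CPM at 6 weeks and 2319, 2221 and 2316 CPM under DMSO (-2.28 ± 0.41). The exporter genes Abcc4 (104, 118 and 119 CPM at 6 weeks against 50.5, 44.6 and 64.6 CPM under DMSO, 1.09 ± 0.13) and Abcb1b (0.67 ± 0.16) were the 2 that were higher. Slc22a7, the anion transporter gene OAT2, had 173, 169 and 8.69 CPM at 6 weeks and 250.5, 227 and 146 CPM under DMSO. It was not called (-1.62 ± 0.96), and without replicate 3 its fold change was -0.24. Of 25 cytochrome P450 genes 12 were lower and 2 higher, or 8 lower without replicate 3, and Cyp2d12 had 5.97, 6.68 and 5.27 CPM at 6 weeks against 65.9, 50.3 and 54.8 CPM under DMSO (-3.05 ± 0.35).

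**Figure D3:**
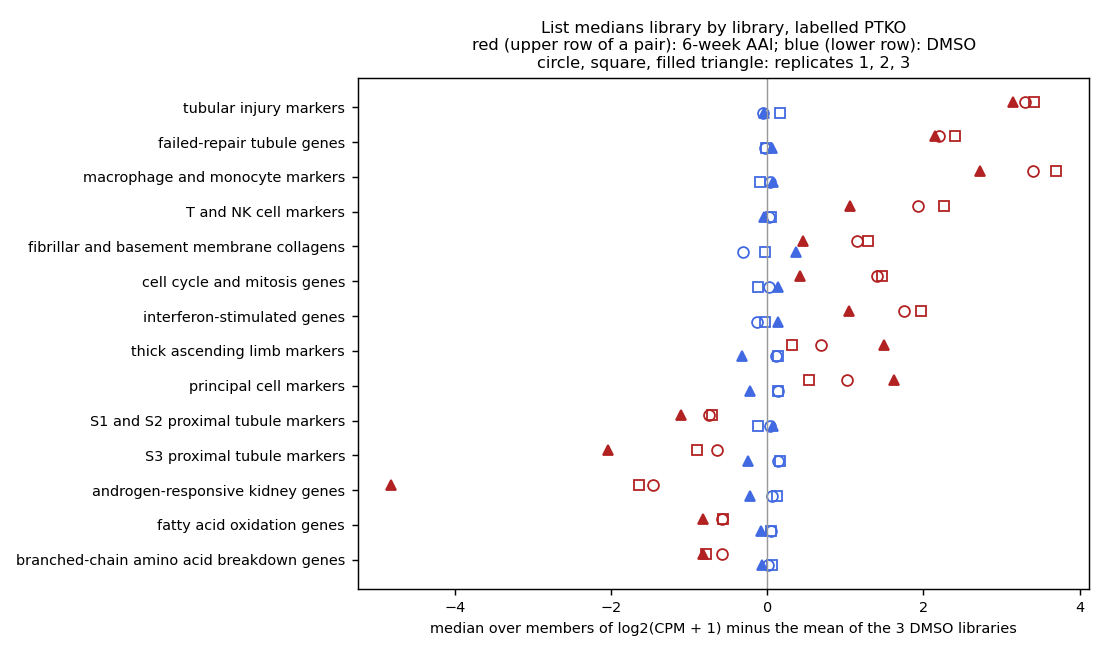
Median over list members of log2(CPM + 1) minus the DMSO mean, for each 6-week AAI library (red, upper row of a pair) and each DMSO library (blue, lower row) labelled PTKO. The filled triangle, replicate 3, lies beside the other 6-week libraries for injury (3.15) and failed-repair genes (2.15), below them for collagens (0.46), cell cycle (0.41), S3 (-2.04) and androgen-responsive genes (-4.82), and above them for thick ascending limb (1.49) and principal cell markers (1.62).

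The enzymes of mitochondrial fuel use were lower by smaller amounts, and more alike between libraries. Fatty acid oxidation genes were lower at 23 of 30 (29 with median-of-ratios scaling, 21 without replicate 3), with medians of -0.58, -0.57 and -0.82 at 6 weeks and 0.04, 0.05 and -0.08 under DMSO. Acads, a short-chain acyl-CoA dehydrogenase gene, had 154, 152 and 113 CPM at 6 weeks and 299.8, 302 and 263 CPM under DMSO (-1.05 ± 0.12). Hadha, a subunit of the mitochondrial trifunctional protein, was not called under CPM (0.03 ± 0.08) and was lower with median-of-ratios scaling (-0.36). The regulator genes Ppara (-1.08 ± 0.28), Hnf4a (769, 785 and 607 CPM at 6 weeks against 1304, 1216 and 1439 CPM under DMSO, -0.88 ± 0.19) and Hnf4g (-1.01 ± 0.17) were lower, as were 9 of 15 regulators in all.

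Breakdown of branched-chain amino acids showed 20 of 27 tested genes lower, with no gene higher, and 25 lower with median-of-ratios scaling. Bckdha, the E1 alpha subunit of the branched-chain ketoacid dehydrogenase, had 253, 218 and 207 CPM at 6 weeks, against 476, 461 and 434 CPM under DMSO (-1.02 ± 0.11, adjusted p = 1.46e-06). Further down the leucine branch, Ivd, the isovaleryl-CoA dehydrogenase gene, had 253, 195 and 159 CPM at 6 weeks and 431, 456 and 430.4 CPM under DMSO (-1.14 ± 0.17), and Mccc1 had 128, 111 and 92.3 CPM and 246, 252 and 225 CPM (-1.13 ± 0.16). Pcca, a subunit of propionyl-CoA carboxylase, had 116, 99.5 and 87.6 CPM at 6 weeks and 215, 209 and 192 CPM under DMSO (-1.02 ± 0.13). In each of these 4 the highest 6-week library lay below the lowest DMSO library. Bckdhb, the E1 beta partner of Bckdha, had 25, 18.8 and 44.5 CPM at 6 weeks and 44.5, 43.5 and 28.2 CPM under DMSO. Replicate 3 of each group went against the rest, and the gene was not called with all libraries (-0.45 ± 0.24, adjusted p = 0.109), whereas it was called without 6-week replicate 3 (-0.78, adjusted p = 0.00286) and without DMSO replicate 3 (-0.65, adjusted p = 0.0324).

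Oxidative phosphorylation genes were lower at 14 of 30 under CPM and 26 of 30 with median-of-ratios scaling, with a median of -0.25. Ndufs1, a core subunit of complex I, had 248, 215 and 207 CPM at 6 weeks, against 347, 343 and 358 CPM under DMSO (-0.65 ± 0.13), and Sdha of complex II had 815, 729.9 and 785 CPM and 1138, 1094 and 1131 CPM (-0.53 ± 0.12). Gluconeogenesis and fructose genes were lower at 10 of 13 (8 without replicate 3). Pcx, the pyruvate carboxylase gene, for example, had 407, 422 and 444 CPM at 6 weeks and 1281, 1103 and 1074 CPM under DMSO (-1.44 ± 0.25). Pck2, the mitochondrial form of Pck1, was higher (0.83 ± 0.15). Glycolysis genes were higher at 13 of 20, not far above the 53.7% of all genes, and Pgk1 was lower (-0.42 ± 0.13). With median-of-ratios scaling 10 were higher and 5 lower. Hk2, an inducible hexokinase gene, had 9.66, 20.8 and 13 CPM at 6 weeks and 0.799, 1.88 and 1.02 CPM under DMSO (2.76 ± 0.31). Pkm, the pyruvate kinase gene of proliferating and distal cells, had 265, 264 and 389 CPM at 6 weeks and 126, 130.4 and 105 CPM under DMSO (1.32 ± 0.16). The abundant enzymes Gapdh (0.11 ± 0.23), Tpi1 (-0.07 ± 0.09) and Ldhb (0.02 ± 0.10) were not called under CPM, and Ldhb was lower with median-of-ratios scaling (-0.38). Cholesterol synthesis genes were higher at 10 of 20, a share below the 53.7% of all genes, and lower at 3. Without replicate 3 they were higher at 9 and lower at 4, and with median-of-ratios scaling 7 were higher and 6 lower.

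Markers of the distal nephron differed from segment to segment in their counts. Of 14 thick ascending limb markers 8 were higher and Egf was lower, a share near the 53.7% of all genes called higher, with 5 higher without replicate 3 and 4 higher and 2 lower with median-of-ratios scaling. The medians were 0.69, 0.31 and 1.49 in 6-week replicates 1, 2 and 3, and 0.11, 0.14 and -0.32 in the DMSO libraries. Egf, an epidermal growth factor gene that falls in injured kidneys, had 1035, 708 and 1048 CPM at 6 weeks, against 2087, 2074 and 1762 CPM under DMSO (-1.10 ± 0.46, adjusted p = 0.0466; adjusted p = 0.0619 without replicate 3). Slc12a1, the sodium, potassium and chloride transporter gene of this segment, had 1197, 798 and 3344 CPM at 6 weeks and 810.5, 891 and 511 CPM under DMSO, with overlap (1.04 ± 0.51, adjusted p = 0.0833; 0.45 without replicate 3). Umod, the uromodulin gene, had 5904, 4529 and 9408 CPM at 6 weeks and 4529.8, 4056 and 2618 CPM under DMSO (0.80 ± 0.37, adjusted p = 0.0726). It was called without 6-week replicate 2 (1.03, adjusted p = 0.0388), while without 6-week replicate 3 the fold change was 0.51 (adjusted p = 0.276) and without replicate 3 of both groups it was 0.27 (adjusted p = 0.594). Cldn16, a tight junction gene for magnesium and calcium, had 25, 21 and 37.9 CPM at 6 weeks and 10, 9.57 and 7.27 CPM under DMSO (1.51 ± 0.26). Principal cell markers of the collecting duct were higher at 11 of 14 (8 with median-of-ratios scaling, 10 without replicate 3), and Gata3 had 34.2, 36.7 and 41.7 CPM at 6 weeks and 12.4, 15.2 and 12.1 CPM under DMSO (1.44 ± 0.13). Hsd11b2, which protects the aldosterone receptor from cortisol-like steroids, had 406, 308 and 536 CPM at 6 weeks and 169, 169 and 127 CPM under DMSO (1.40 ± 0.17). Distal convoluted and connecting tubule markers were mixed, with 5 of 14 higher and 1 lower (4 higher without replicate 3), below the share of all genes, or 2 higher and 3 lower with median-of-ratios scaling, which turns the median (0.25 under CPM, -0.15 with that scaling). Trpv5, the apical calcium channel gene, had 48.9, 59.4 and 59 CPM at 6 weeks and 19, 19.1 and 18 CPM under DMSO (1.52 ± 0.14). Intercalated cell markers were higher at 7 of 14 (6 without replicate 3) and lower at 2, or 4 higher and 2 lower with median-of-ratios scaling. The share that was higher lay below the 53.7% of all genes.

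Podocyte markers were higher at 13 of 16 (9 with median-of-ratios scaling), with a summed level of 1217, 1215 and 1188 CPM at 6 weeks and 706, 696 and 774 CPM under DMSO. Synpo, a podocyte actin regulator, had 178, 168 and 149.7 CPM at 6 weeks and 75.2, 66.5 and 79.9 CPM under DMSO (1.15 ± 0.10), and Nphs1, the slit diaphragm gene nephrin, had 49.6, 48.7 and 50.3 CPM and 34, 30.6 and 30.4 CPM (0.63 ± 0.12). Endothelial markers were higher at 4 of 20 and lower at 4, or 1 higher and 7 lower with median-of-ratios scaling, which turns the median (0.098 under CPM, -0.30 with that scaling). Kdr, the main receptor of vascular endothelial growth factor, had 59.6, 58.6 and 53.6 CPM at 6 weeks and 111, 126 and 147 CPM under DMSO (-1.14 ± 0.19), and the related receptor gene Flt1 had 49.1, 47.7 and 60.6 CPM and 83.3, 84.2 and 103 CPM (-0.77 ± 0.18). Among 8 tested renin and angiotensin genes 5 were lower (4 without replicate 3), including the converting enzyme gene Ace (288, 216 and 102 CPM at 6 weeks against 574, 564 and 428 CPM under DMSO, -1.48 ± 0.32). Agt, the gene of the precursor angiotensinogen, was higher, with 305, 247 and 259.6 CPM at 6 weeks and 74.5, 95.5 and 35.7 CPM under DMSO (2.07 ± 0.29).

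Genes in which replicate 3 of the 6-week group was furthest from both others are described here without a test. The largest gaps below were in Acsm3, Slc22a7, Hc, Pzp and Slco1a1. Hc, the complement C5 gene, had 24.9, 25.7 and 0.767 CPM at 6 weeks, against 0.0499, 0 and 0 CPM under DMSO, so replicate 3 lay far below replicates 1 and 2 and above the vehicle. Large gaps above were in Kcnt1, Ugt1a2, Nccrp1 and Ugt1a1. Kcnt1, a sodium-activated potassium channel gene, had 1.56, 1.84 and 28.3 CPM at 6 weeks and 7.19, 6.59 and 1.29 CPM under DMSO. In Kcnt1 DMSO replicate 3 was the lowest vehicle library while 6-week replicate 3 was the highest of its group. Relative to its group, 6-week replicate 3 was thus lower in S3, matrix, immune and cell cycle genes and higher in ascending limb and collecting duct genes. DMSO replicate 3 stood apart in other genes, with the chaperone gene Hspa5 at 497, 518 and 1484 CPM in the 3 DMSO libraries and the branched-chain transaminase gene Bcat1 at 89.5, 73.7 and 10.3 CPM. The Y-linked genes Ddx3y (48.2, 48.8 and 56.3 CPM at 6 weeks, 48.8, 42.1 and 51.7 CPM under DMSO) and Kdm5d (24.8, 22.6 and 27.8 CPM and 21.7, 17.5 and 18.4 CPM) were present in all 6 libraries. Replicate 2 had the highest adipocyte list median of its group, at -0.87, 2.09 and -0.59 in the 6-week libraries and -0.33, 0.64 and -0.49 in the DMSO libraries, and the highest urothelium list median, at 0.60, 2.55 and 0.27 and -0.32, 0.96 and -0.54. The fat cell gene Cfd had 0.0519, 193 and 0.102 CPM at 6 weeks and 0.35, 21.4 and 0 CPM under DMSO, and the urothelial keratin gene Krt5 had 1.04, 17.5 and 0.102 CPM and 0.0499, 2.12 and 0.0539 CPM. Of 14 listed adipocyte markers 7 passed the filter. The summed level of all 14 was 426, 1332 and 330.0 CPM at 6 weeks and 1543, 1440.0 and 1758 CPM under DMSO, much of it Lpl, which the kidney also expresses. In the DMSO group the sum was lowest in replicate 2. Of 10 urothelium markers 8 passed and 4 were called higher, a share below the 53.7% of all genes. Without 6-week replicate 3, 7 were higher, against 48.3% of all genes. The sums over all 10 were 19.4, 81.4 and 44.5 CPM at 6 weeks and 2.9, 17.4 and 1.24 CPM under DMSO. The part of adipocyte and urothelium genes in the results was not tested.

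How far the kidneys had moved since the end of AAI was read from the 6-week against the 3-week libraries labelled PTKO. Of 14604 genes 1633 (11.2%) differed, 426 higher (2.92%) and 1207 lower (8.26%) at 6 weeks, and without 6-week replicate 3 the counts were 1180 in all (8.08%), 326 higher (2.23%) and 854 lower (5.85%). Single libraries weighed on this count, which was 536 without 3-week replicate 1, 666 without 3-week replicate 3 and 785 without 6-week replicate 1. Cell cycle genes were lower at 25 of 30 (16 without 6-week replicate 3), with list medians of 2.62, 2.36 and 2.24 at 3 weeks and 1.41, 1.47 and 0.41 at 6 weeks above the DMSO mean. Mki67 had 4.1, 3.42 and 6.79 CPM under DMSO, 86.3, 64.8 and 82.6 CPM at 3 weeks and 23, 29.5 and 6.24 CPM at 6 weeks, and its 6-week minus 3-week log2 difference was -2.17 ± 0.44 (adjusted p = 0.0075). Collagens were lower at 12 of 20 (6 without replicate 3). Col18a1 had 195, 185 and 221 CPM under DMSO, 806, 839.6 and 905 CPM at 3 weeks and 647, 602 and 543 CPM at 6 weeks (-0.51 ± 0.10 for 6 against 3 weeks, adjusted p = 0.00568). Acta2, which was not called against DMSO, was lower at 6 than at 3 weeks (-1.23 ± 0.24, adjusted p = 0.00686), with 41.5, 52.6 and 40 CPM under DMSO, 131, 129 and 178 CPM at 3 weeks and 67.5, 85.9 and 38.8 CPM at 6 weeks.

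Most injury, macrophage and proximal tubule markers were not called between the 2 times, but injury markers were lower more often than all genes. Of the 20 injury markers 7 were lower at 6 than at 3 weeks and Krt19 was higher (1.37 ± 0.38), against 8.26% of all genes lower and 2.92% higher. Without replicate 3, 2 were lower and 0 higher, so the call of Krt19 was lost. All 20 stayed above DMSO. Havcr1 was lower (269, 351 and 116 CPM at 6 weeks, 582, 841 and 547 CPM at 3 weeks; -1.53 ± 0.33, adjusted p = 0.0105), and C3 was not called (0.16 ± 0.25, adjusted p = 0.713; 95% interval of the difference in log2 units -0.36 to 0.69). Macrophage markers were lower at 3 of 24 (1 without replicate 3), and T and NK cell markers at 1 of 22 (0 without replicate 3), to be read against the 8.26% of all genes that were lower. Of 29 p53 targets 15 were lower, a share also above that of all genes. Cdkn1a was among them (7.79, 7.02 and 12.5 CPM under DMSO, 399.9, 453 and 404 CPM at 3 weeks and 196, 207 and 283 CPM at 6 weeks). Of 22 S1 and S2 markers Miox alone was higher at 6 than at 3 weeks (2183, 2379 and 2119 CPM under DMSO, 346, 379 and 379.5 CPM at 3 weeks, 855, 753 and 538 CPM at 6 weeks; 0.93 ± 0.28, adjusted p = 0.0416). Of 20 S3 markers 0 were called by limma with all libraries, at an S3 list median of 0.75, and 5 were higher without 6-week replicate 3. Higher calls were made in oxidative phosphorylation, at 11 of 30 (6 without replicate 3), and in branched-chain amino acid breakdown, at 6 of 27 (4 without it). Ivd, for example, was at 431, 456 and 430.4 CPM under DMSO, 116, 156 and 133 CPM at 3 weeks and 253, 195 and 159 CPM at 6 weeks (0.57 ± 0.17, adjusted p = 0.0439). In the thick ascending limb 5 of 14 markers were higher at 6 weeks (2 without replicate 3), and Egf had 2087, 2074 and 1762 CPM under DMSO, 246, 387 and 235 CPM at 3 weeks and 1035, 708 and 1048 CPM at 6 weeks (1.70 ± 0.46, adjusted p = 0.0303). The leading genes of this contrast were Inmt, a methyltransferase gene (2.36 ± 0.37), and Hpd of tyrosine breakdown (2.33 ± 0.44) among the higher, and the secreted channel regulator Clca4 (-2.76 ± 0.37) and the gelatinase gene Mmp9 (-2.55 ± 0.42) among the lower. The 6-week libraries enter this contrast and the one against DMSO alike, so the 2 are not independent.

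**Figure D4:**
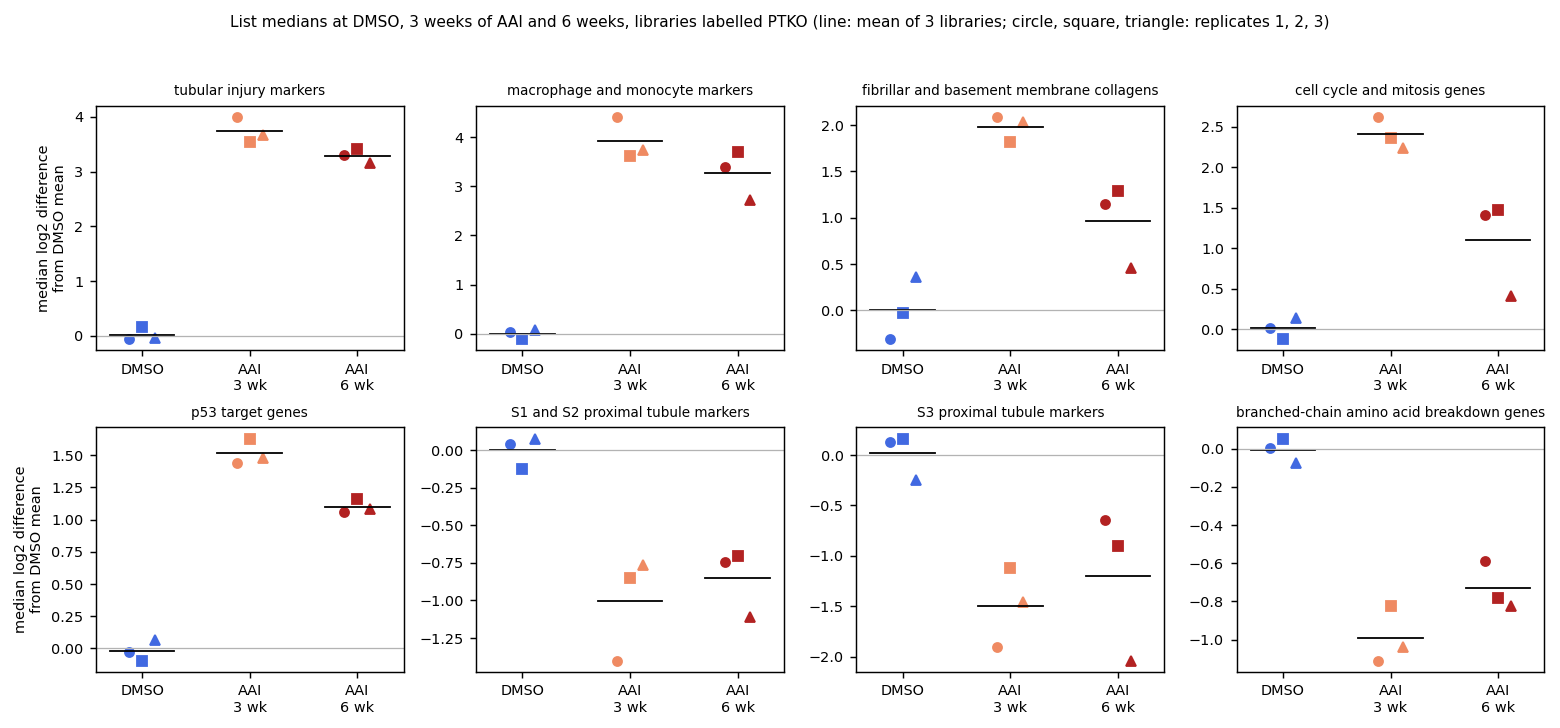
Median over list members of log2(CPM + 1) minus the DMSO mean, in libraries labelled PTKO under DMSO, at 3 weeks of AAI and at 6 weeks, with replicates as symbols and a line at the mean of 3. Injury markers lie at 3.54 to 4.0 at 3 weeks and 3.15 to 3.42 at 6 weeks, while cell cycle genes lie at 2.24 to 2.62 and 0.41 to 1.47, and S3 markers spread from -2.04 to -0.65 at 6 weeks.

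Whether the remodeling-phase change depended on genotype was tested as the change in PTKO (6 weeks minus DMSO) minus the change in fl/fl. Of 14604 genes 10 (0.0685%) passed in limma, 4 with a higher (0.0274%) and 6 with a lower change in PTKO (0.0411%), and 2132 genes had an unadjusted p under 0.05. The calls were fragile. Leaving out fl/fl 6-week replicate 1 or fl/fl DMSO replicate 1 left 0 calls, leaving out fl/fl 6-week replicate 2 gave 250, and the removal of other libraries left 4 to 9. On recovered reads edgeR called 1 gene and DESeq2 85, and the count was 8 (0.0548%) without PTKO 6-week replicate 3. Mmp7, the matrix protease gene matrilysin and a marker of scarring kidneys, had 1.45, 3.52 and 1.23 CPM in PTKO at 6 weeks and 0, 0.0481 and 0 CPM in PTKO DMSO, against 17.8, 15.4 and 10.7 CPM in fl/fl at 6 weeks and 0, 0 and 0.106 CPM in fl/fl DMSO (-2.37 ± 0.33, adjusted p = 0.0161). Pdpn, the podoplanin gene, had 19.8, 17.7 and 28.8 CPM and 3.7, 4.43 and 4.09 CPM in PTKO, against 96.7, 60.7 and 81.5 CPM and 5.15, 4.32 and 5.28 CPM in fl/fl, in the same order (-1.59 ± 0.26, adjusted p = 0.0399). Both rose in both genotypes, less in PTKO. All vehicle values of Mmp7 were under 1 CPM, so its fitted difference depends on the pseudocount. With a pseudocount of 0.1 this contrast had 1 call. Gsta3, a glutathione transferase gene, had 76.3, 83.2 and 141 CPM at 6 weeks and 96.9, 107 and 102 CPM under DMSO in PTKO, against 31.1, 37.5 and 44.9 CPM and 113, 110.3 and 122 CPM in fl/fl (1.52 ± 0.27, adjusted p = 0.049). In the gene lists described above, Mmp7 was the only member called for this difference. For Bckdha the difference was 0.38 ± 0.15 (adjusted p = 0.29), for Slc34a1 0.91 ± 0.34 (adjusted p = 0.266) and for Havcr1 0.57 ± 0.47 (adjusted p = 0.602), which does not show that the genotypes respond alike.

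**Figure D5:**
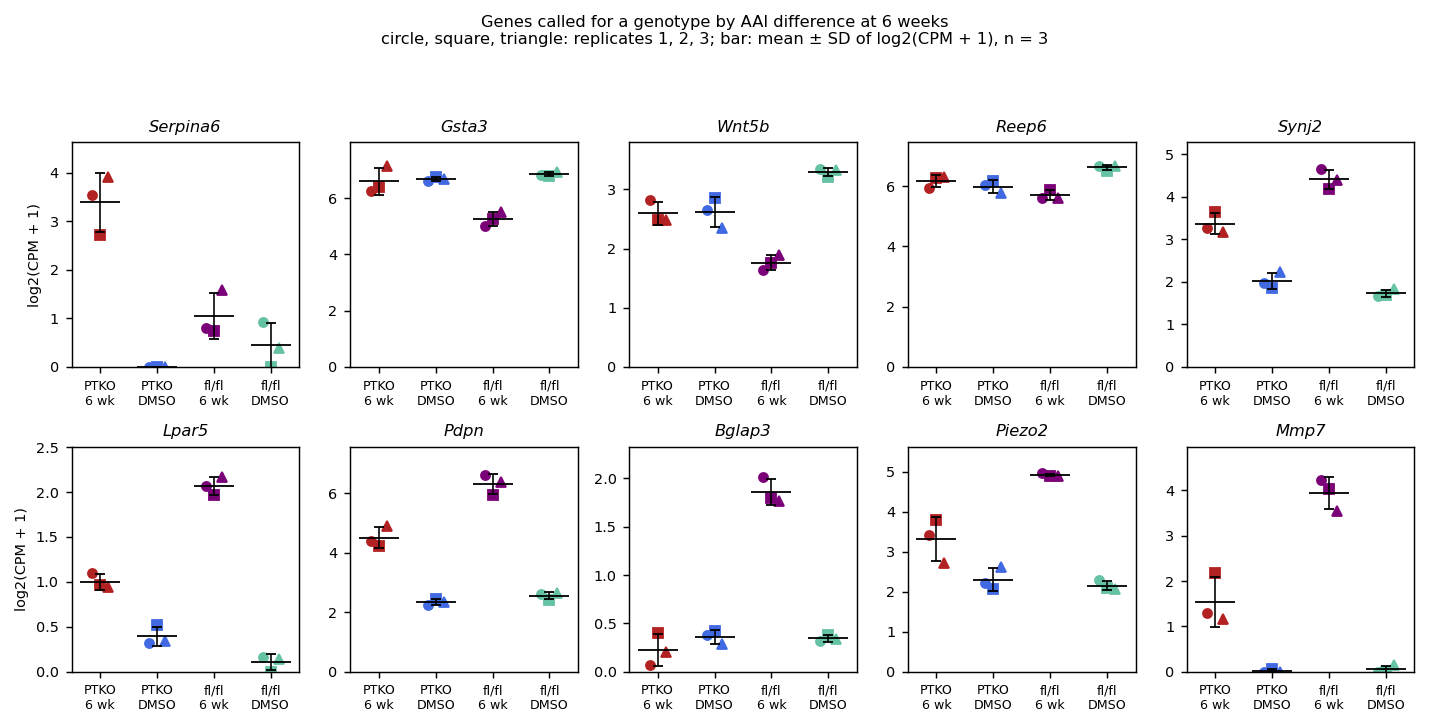
Log2(CPM + 1) of the 10 genes called for a genotype by AAI difference at 6 weeks, in PTKO 6-week, PTKO DMSO, fl/fl 6-week and fl/fl DMSO libraries. Points are libraries with replicate 3 as a triangle and bars give the mean ± SD of 3; Pdpn, for example, reaches 60.7 to 96.7 CPM in fl/fl at 6 weeks and 17.7 to 28.8 CPM in PTKO.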

How the data were processed

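Total RNA of kidney cortex was sequenced as 18 stranded libraries, 3 in each of 6 groups. The authors deposited CPM values (read counts scaled to library size) per gene symbol; the submitters' processing notes name bcl2fastq 2.19, kallisto and the build mm10, and further settings are not given in the sources used here. Every deposited CPM value (433116 of 433116) was within 0.01 of a whole number of reads, so whole reads were recovered for the count models. The table has 24062 rows, with 2 repeated symbols and 27 symbols turned into dates, and 22683 symbols matched GENCODE M21, from which positions were taken.

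The test used log2(CPM + 1) of the 14604 genes reaching 1 CPM in 3 or more libraries. A linear model with a mean for each of the 6 groups was fitted to the 18 libraries together (limma 3.58.1, R 4.3.3), with a variance trend and Benjamini-Hochberg adjustment over all tested genes; "called" means an adjusted p under 0.05. Single values were compared by a two-sided exact permutation test. Alternatives were another pseudocount, filters, median-of-ratios and quantile scaling, the compared groups alone, a replicate block, library weights, no variance trend, a fold minimum, edgeR 4.0.16 and DESeq2 1.42.0 on recovered reads, and each library left out. The scripts were tested on simulated data.

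Same-numbered 6-week and DMSO libraries deviated with correlations of 0.026, -0.012 and -0.13, and the labels tie no numbers, so the numbers were not treated as pairs. The named genes are Klf6, up to 10 genes in each direction with the largest fold change that were called under both scalings and without 6-week replicate 3, at 5 CPM or more and with no overlap of groups, up to 5 genes in each direction for the other 2 contrasts by like rules, the members of each list with the smallest adjusted p or, if not called, the highest level, and some fixed examples. Further list members, the exceptions within lists and the promoters printed were chosen after their values were seen. The comparison, its members and the gene lists were chosen with earlier results of these data known. Results for some genes are not reported here.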

Additional observations from a re-analysis of the deposited data

Results flagged for a closer look

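A test of the difference between genotypes (change in PTKO minus change in fl/fl, 6 weeks against DMSO, limma) singled out 10 genes, each on the log2 scale. The change in PTKO was the higher one for Serpina6 (2.79), Gsta3 (1.52), Wnt5b (1.51) and Reep6 (1.10). It was the lower one for Mmp7 (-2.37), Piezo2 (-1.75), Bglap3 (-1.65), Pdpn (-1.59), Lpar5 (-1.36) and Synj2 (-1.34). Serpina6, which encodes the corticosteroid carrier of plasma, had 10.7, 5.63 and 14.1 CPM in PTKO at 6 weeks and 0, 0 and 0 CPM in PTKO DMSO, against 0.748, 0.682 and 2.01 CPM in fl/fl at 6 weeks and 0.908, 0 and 0.317 CPM in fl/fl DMSO. With every PTKO DMSO library at 0, its fitted difference depends on the pseudocount. The vehicle values of Mmp7, Lpar5 and Bglap3 were all under 1 CPM, so the same limit holds for them. Wnt5b, a secreted signalling factor, had 6.02, 4.58 and 4.6 CPM at 6 weeks and 5.24, 6.25 and 4.09 CPM under DMSO in PTKO, against 2.09, 2.39 and 2.71 CPM and 9.14, 8.28 and 8.98 CPM in fl/fl. Reep6, a membrane-shaping gene, had 60.6, 76.3 and 77.5 CPM and 64.4, 71 and 53.4 CPM in PTKO, against 47.7, 58.3 and 48.2 CPM and 101, 90.7 and 102 CPM in fl/fl, at 6 weeks and under DMSO. Piezo2, a mechanically gated channel gene, had 9.76, 12.8 and 5.57 CPM at 6 weeks and 3.65, 3.17 and 5.12 CPM under DMSO in PTKO, against 30.1, 28.9 and 28.8 CPM and 3.88, 3.25 and 3.22 CPM in fl/fl. Synj2, a phosphoinositide phosphatase gene, had 8.67, 11.5 and 8.03 CPM and 2.95, 2.6 and 3.72 CPM in PTKO, against 24.1, 17.3 and 20 CPM and 2.18, 2.24 and 2.54 CPM in fl/fl. Lpar5, a lysophosphatidic acid receptor gene, had 1.14, 0.947 and 0.921 CPM and 0.25, 0.433 and 0.269 CPM in PTKO, against 3.19, 2.9 and 3.48 CPM and 0.121, 0 and 0.106 CPM in fl/fl. Bglap3, an osteocalcin-like gene with close paralogs, had 0.0519, 0.316 and 0.153 CPM and 0.3, 0.337 and 0.215 CPM in PTKO, against 3.04, 2.47 and 2.4 CPM and 0.242, 0.305 and 0.264 CPM in fl/fl.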

How the results depend on the processing

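The 9501 calls against DMSO numbered 8496 to 8975 with 1 library left out, and 2968 when a log2 fold change of at least 1 was also asked for. Calls against 3 weeks numbered 536 to 1623 with 1 library left out, 382 in a fit of the compared groups alone, 3436 with library weights and 329 with the fold minimum. The 10 genotype calls numbered 0 to 250 with 1 library left out, 1 with a pseudocount of 0.1, 5 with a 5 CPM filter, 18 with quantile normalization, 2270 with library weights, 1 with edgeR and 85 with DESeq2. The replicate block gave 9364, 1473 and 11 calls for the 3 contrasts, and all 248 named genes of the DMSO contrast kept their call and direction with it. The sign turns given next are those of named genes called in the main fit or in the alternative. Turns of genes called in neither are left out, so the lists do not hold every gene whose sign changed. Median-of-ratios scaling turned the sign of Hadha (-0.36), Acadsb (-0.37), Ldhb (-0.38), Ei24 (-0.27), Kdm5d (-0.0086) and Ddx3y (-0.29), and moved the median of all tested genes from 0.36 to 0.011. DESeq2 turned Hadha (-0.36), Acadsb (-0.37), Ldhb (-0.38), Ei24 (-0.27), Fth1 (-0.39), Kdm5d (-0.010) and Ddx3y (-0.29), and edgeR turned Hadha (-0.33), Acadsb (-0.34), Ldhb (-0.34) and Ei24 (-0.24). Quantile normalization turned Il18 (-0.72), Tyms (-0.35), Nos3 (-0.074), Eno3 (-0.11), Mylpf (-0.55), Star (-0.61), Cr2 (-0.71) and Kdm5d (-0.092). Library weights turned Col6a3 (0.85). Leaving out replicate 3 of both groups, chosen after seeing the data, turned both signs; with those and single libraries left out, Col6a3 ranged between -0.54 and 1.0 and Kcnt1 between -1.55 and 0.80. The cause was not tested. The fold change of Klf6 stayed between 2.36 and 2.71 with 1 library left out. With 3 libraries a group, the exact test cannot go below 0.1, and genes near the 1 CPM filter rest on few reads.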
